A study of Homo sapiens with 18 samples.

Results

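The 77 genes described here encode the proteins of the human cytosolic ribosome: 46 of the large subunit and 31 of the small subunit. They were taken by name from a table of 59251 genes, as every symbol of the form RPL or RPS followed by a number (with A or X where the symbol has one) together with RPSA, RPLP0, RPLP1 and RPLP2. Pseudogenes and the S6 kinases were left out. The 77 genes lie on 21 chromosomes, and all of them passed the filter on low counts, among 21615 genes tested.

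Ribosomal proteins are assembled with ribosomal RNA in the nucleolus, and each ribosome needs close to equal amounts of all of them. Their messenger RNAs are among the most abundant of a growing cell, are small, and nearly all begin with a 5′ terminal oligopyrimidine (TOP) tract, a run of C and T bases that begins with C at the start site. Through this tract the kinase mTORC1 and the RNA-binding protein LARP1 set how strongly these messages are translated and how stable they are, and MYC raises the transcription of many of them. Some members also act outside the ribosome: RPL5 and RPL11 bind MDM2 when ribosome assembly is disturbed, and loss of 1 copy of any of several members causes Diamond-Blackfan anaemia.

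A script looked for the tract in RefSeq (GRCh38.p14) as a run of at least 5 C or T bases that begins with C within 5 bases either side of the annotated start, on the gene's own strand only. Of the 62 members with an entry in the promoter table, 50 (80.6%) held such a run, with a median length of 11 bases. It stood in 5699 of 27243 other promoters (20.9%), with a median length of 6 bases. In all these counts a run was measured from a C inside that limit, even where other C or T bases came directly before it. The 8 members shown are those the results below return to most often. Each window runs from 10 bases before the annotated start to 20 bases from it, and capitals mark the run. In RPL13A, RPS10 and RPL35A, C or T bases that were not counted stand directly before the capitals.
RPL13A (chr19:49487598-49487627, plus strand): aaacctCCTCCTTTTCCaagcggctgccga
RPL31 (chr2:101002279-101002308, plus strand): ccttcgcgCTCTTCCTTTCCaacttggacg
RPS3A (chr4:151099618-151099647, plus strand): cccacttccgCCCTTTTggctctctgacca
RPL41 (chr12:56116623-56116652, plus strand): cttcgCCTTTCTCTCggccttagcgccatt
RPL35A (chr3:197950180-197950209, plus strand): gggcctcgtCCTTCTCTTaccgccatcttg
RPS10 (chr6:34426050-34426079, minus strand): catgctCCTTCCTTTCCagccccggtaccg
RPS29 (chr14:49598691-49598720, minus strand): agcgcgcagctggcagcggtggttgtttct
RPL17 (chr18:49492446-49492475, minus strand): ttccctaagcagcctgaggtgagtgtttct
RPS29 and RPL17 had no such run in this window at the start RefSeq lists, which says nothing about other start sites of these genes.

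The study asked how HAP1 cells, an adherent near-haploid human line derived from a leukaemia line, change their gene expression when they lose SARS2, the seryl-tRNA synthetase of mitochondria. SARS2-deleted HAP1 cells that carry a doxycycline-dependent SARS2-1xFLAG copy were compared after 3, 6 or 9 days without doxycycline (called day 3, day 6 and day 9) with the same line kept in 15 ng/mL doxycycline. Unmodified parental HAP1 cells without doxycycline and with 15 ng/mL doxycycline gave the reference for the drug itself. Each of the 6 groups had 3 libraries, made from total RNA and sequenced in pairs of 151-base reads. No source used here gives the promoter of the SARS2-1xFLAG copy, whether the deleted line is 1 clone, or how long the parental cells had been without doxycycline.

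The libraries held 66850705 to 111123481 counts assigned to genes. SARS2 itself gave 23.5, 25.2 and 23.9 CPM, that is counts scaled to a common library size, in the deleted line with doxycycline, 30.5, 31.9 and 32.4 on day 3, 23.2, 25.8 and 25 on day 6, and 43.3, 34.0 and 48.1 on day 9, against 36.6, 40.4 and 42.6 in parental cells without doxycycline and 43.5, 46.2 and 43.2 in parental cells with it. SARS2 was not lower on any day than with doxycycline, and was called higher on day 3 (log2 fold change 0.39 ± 0.10, edgeR adjusted p = 0.014, or 0.052 to 0.068 without doxycycline replicate 1 or day 3 replicate 2 or 3) and on day 9 (0.79 ± 0.10, adjusted p = 2.7e-06). Whether its count holds reads of the SARS2-1xFLAG copy, of what the deletion left, or of both is not known, so it does not check the labels, and the days are named below as the libraries are labelled. Of 10 haematopoietic markers, GATA1, HBG1 and MPO were at 0 in all libraries and ITGA2B held most of the summed level of 9.13 to 27.5 CPM, while 10 mesenchymal markers summed to 592 to 1086 CPM, mainly VIM, and 10 epithelial markers to 48.4 to 80.5 CPM; these sums are relative to the plain library total. NEAT1, a nuclear long non-coding RNA, rose on day 6 (13, 18.2 and 17.7 CPM) and fell on day 9 (2.71, 2.0 and 3.99 CPM), each against 6.65, 7.22 and 6.70 CPM with doxycycline, and rose in parental cells without doxycycline (15.0, 12.6 and 16.2 CPM) against parental cells with it (3.85, 3.70 and 4.28 CPM). Ribosomal protein genes are short: their median exonic length was 1100 bases against 3404 bases for all tested genes. Across the 21615 genes the log2 fold change followed exonic length with a Spearman correlation of 0.21 on day 6 and 0.135 for the parental drug comparison, and of 0.038 on day 3 and -0.059 on day 9. The part of NEAT1 and of this length relation in the results below was not tested, except by the fits with the length trend removed.

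The share of a library taken by the 77 genes was lower on all 3 days than in the same line with doxycycline. It was 6.81% to 7.42% of all counts in the deleted line with doxycycline, 5.97% to 6.15% on day 3, 5.77% to 5.96% on day 6 and 6.06% to 6.57% on day 9. The corresponding means were 7.06 ± 0.319%, 6.06 ± 0.0943%, 5.90 ± 0.111% and 6.26 ± 0.272% (SD, n = 3 each). The libraries of each day lay below every library with doxycycline, and the highest library of both the doxycycline group and day 9 was replicate 3. This share uses the plain total of counts. By CPM, the median log2 deviation of the members from their own mean over all libraries was 0.203 in day 9 replicate 3. That lay above doxycycline replicates 1 and 2 (0.087 and 0.122) and below doxycycline replicate 3 (0.264), so for day 9 the separation depended on the scaling. Parental cells had shares of 6.58% to 6.99% without doxycycline and 6.37% to 6.76% with it, which overlapped. The share in parental cells lay above that of days 3 and 6 in every library. Day 9 overlapped parental cells with doxycycline and lay just below those without it. The deleted line with doxycycline, the reference for the 3 days, lay above parental cells with doxycycline in every library and overlapped those without it. A lower share in bulk RNA cannot separate less message per cell from a change in which cells were present.

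**Figure D1:**
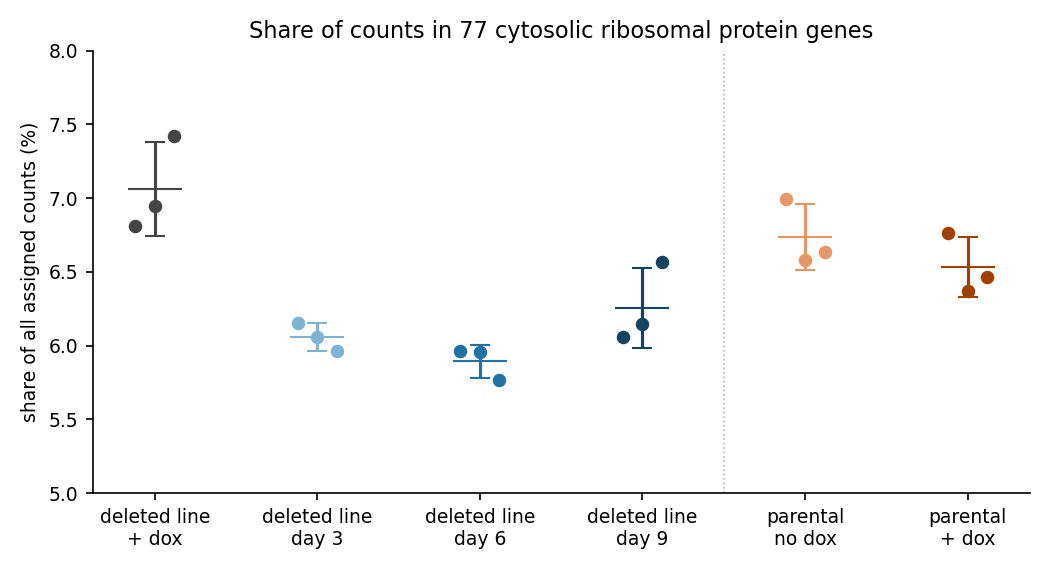
Share of all assigned counts (%) in the 77 cytosolic ribosomal protein genes, 1 point per library, with the mean as a horizontal bar and the SD as a vertical bar (n = 3); the y axis starts at 5%. All libraries of days 3, 6 and 9 lie below the lowest doxycycline library of the deleted line, at 6.81%.

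Within the module the levels spread widely. Per kilobase of exon, averaged over the 18 libraries, RPS2 was highest with 2720 CPM, followed by RPS18 with 2100, RPL13A with 2010 and RPLP0 with 1820. RPL17 with 18.6, RPS10 with 10.8 and RPL36A with 0.671 CPM per kilobase were the 3 lowest, and RPS29 was next with 35.7. These 3 genes each share exons with a listed readthrough gene (RPS10-NUDT3, RPL17-C18orf32 and RPL36A-HNRNPH2) that covers 60.0%, 53.1% and 43.8% of their exonic length and holds 0 counts in every library. RPS10 had 244 to 1771 counts per library, RPL17 had 895 to 3290 and RPL36A had 25 to 76. Pseudogenes named after RPS10 and RPL17 held 365% and 290% of the count of the gene itself, and those of RPL36A held 20194%. Those of RPS28 and RPL9 held 184% and 116%, and over the 77 members the median was 1.24%. No source used here says how reads that fall in more than 1 gene were counted, and these genes are described apart from the rest.

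On day 6 the decrease ran through nearly the whole module. Of 77 members, 70 (90.9%) were lower than with doxycycline and 0 were higher at an adjusted p under 0.05, whereas 14.0% of all tested genes were lower and 14.0% higher. The median log2 fold change over the members was -0.36, with quartiles of -0.45 and -0.31, against a median of 0.01 over all tested genes. In 74 members all 3 day 6 libraries lay below all 3 doxycycline libraries, which was so for 23.3% of tested genes. Large and small subunit members were alike in this: 41 of 46 and 29 of 31 were lower, with medians of -0.34 and -0.40. The count of lower members was 57 to 70 with any 1 library left out and 44 in the fit that removed the trends with GC content and length and kept the replicate number as a block.

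**Figure D2:**
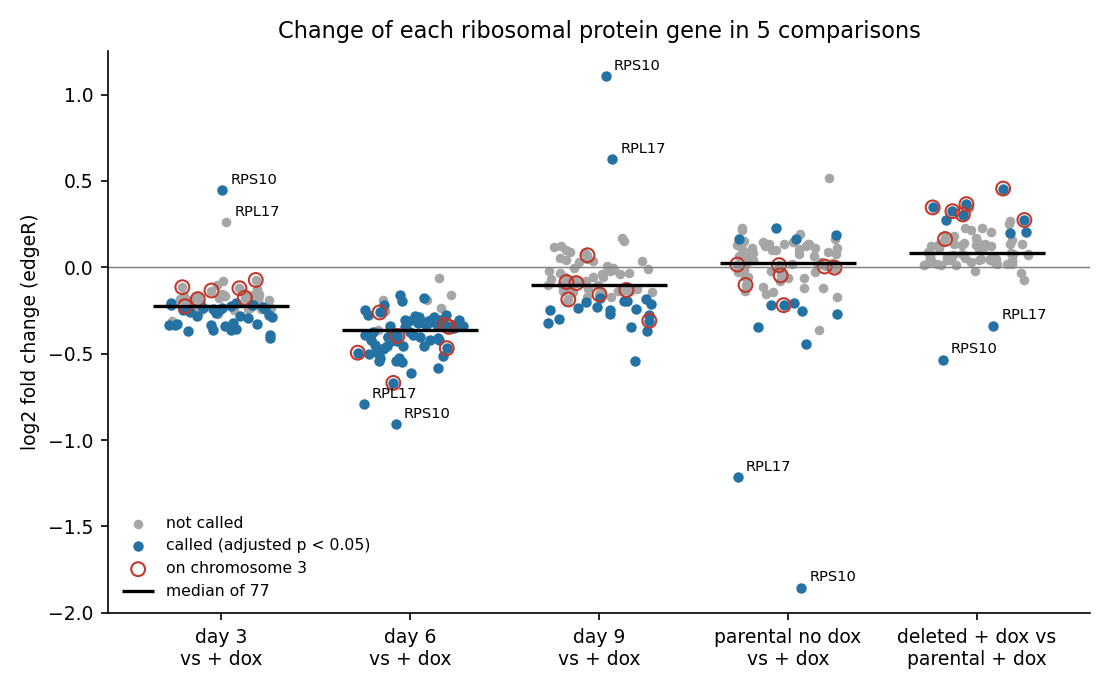
The log2 fold change (y axis) of each of the 77 genes in 5 comparisons, 1 point per gene, blue where called at an adjusted p under 0.05 and grey otherwise, with the median of the 77 as a black line and red rings on the 7 members of chromosome 3. The day 6 points lie below 0 throughout, with a median of -0.36, and RPS10 and RPL17 are the outermost points on days 6 and 9 and in parental cells.

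The acidic stalk, which draws elongation factors to the large subunit, was lower as a whole on day 6. RPLP0, the base of the stalk, had 1870, 1940 and 1820 CPM on day 6 against 1970, 2370 and 2530 CPM with doxycycline (log2 fold change -0.29 ± 0.08 SE, edgeR adjusted p = 0.016). RPLP1 had 1110, 1200 and 1060 CPM against 1330, 1300 and 1470 CPM (-0.28 ± 0.09, adjusted p = 0.023), and RPLP2 had 448, 470 and 435 CPM against 541, 541 and 606 CPM (-0.32 ± 0.07, adjusted p = 0.0029). The groups did not overlap for any of the 3 stalk genes. Without doxycycline replicate 3 the edgeR adjusted p of RPLP0 was 0.11 and that of RPLP1 was 0.12, and without day 6 replicate 3 they were 0.056 and 0.093. Of 19 alternative fits in all, RPLP0 and RPLP1 each lost the call under 6 and RPLP2 under 2.

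Of the pair that carries 5S ribosomal RNA into the large subunit, only RPL5 was called on day 6. Whether the changes of the pair differ from each other was not tested. RPL5 had 961, 990 and 920 CPM on day 6 against 1150, 1150 and 1250 CPM with doxycycline (-0.30 ± 0.06, edgeR adjusted p = 0.00083), a call lost under 3 of 19 alternative fits. RPL11 had 1260, 1310 and 1190 CPM on day 6 against 1440, 1300 and 1470 CPM with doxycycline, groups that overlapped, and it did not pass the test (-0.16 ± 0.07, edgeR adjusted p = 0.09). RPL11 was the member of this pair that was called on day 3, with 1160, 1160 and 1230 CPM against the same controls (-0.24 ± 0.07, edgeR adjusted p = 0.026), a call that was lost without any 1 of 5 of the 6 libraries, doxycycline replicate 2 being the exception (adjusted p of 0.057 to 0.1).

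Members at the peptidyl transferase centre and along the exit tunnel, through which the growing chain leaves, were lower on day 6 in most cases. RPL3, which reaches toward the peptidyl transferase centre, had 1840, 1890 and 1820 CPM on day 6 against 2250, 2180 and 2350 CPM with doxycycline (-0.29 ± 0.06, edgeR adjusted p = 0.002). This call was lost under 3 of 19 alternative fits. RPL10, which joins late and completes the subunit, had 1120, 1150 and 1050 CPM against 1350, 1360 and 1470 CPM (-0.33 ± 0.07, adjusted p = 0.0016). The most abundant member before correction for length was RPL4, whose loop lines the tunnel, with 4060, 4040 and 3890 CPM on day 6 against 4500, 4520 and 4940 CPM with doxycycline (-0.22 ± 0.07, adjusted p = 0.023). Of 9 members listed for the exit tunnel, 8 were lower, with a median of -0.39. This was much as in the whole module, where 70 of 77 were lower, beside 14.0% of all tested genes. RPL22, a tunnel-side protein with an RNA-binding role outside the ribosome, had 412, 467 and 401 CPM against 524, 515 and 555 CPM (-0.32 ± 0.07, adjusted p = 0.0024). None of these 4 genes overlapped between the groups.

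The largest decreases on day 6, outside RPS10 and RPL17, were of RPL35A, RPS29 and RPL41. RPL35A, a large subunit protein mutated in some Diamond-Blackfan families, had 381, 406 and 365 CPM on day 6 against 552, 605 and 675 CPM with doxycycline (-0.67 ± 0.10, edgeR adjusted p = 6.2e-05). RPS29, a small zinc-binding protein of the head of the small subunit, had 217, 229 and 192 CPM against 280, 327 and 368 CPM (-0.61 ± 0.13, adjusted p = 0.0018). RPL41, the smallest of the ribosomal proteins, had 555, 579 and 552 CPM against 789, 823 and 906 CPM (-0.58 ± 0.10, adjusted p = 0.00047). In all 3 every day 6 library was below every doxycycline library.

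Small subunit members were lower too. RPSA, on the cytosolic face of the head and also known as a laminin receptor, had 1110, 1120 and 1040 CPM on day 6 against 1480, 1450 and 1580 CPM with doxycycline (-0.47 ± 0.06, edgeR adjusted p = 2e-05). RPS6, the classical substrate of the S6 kinases, had 1070, 1160 and 1110 CPM against 1400, 1390 and 1540 CPM (-0.38 ± 0.07, adjusted p = 0.00066). RPS27A, made as a fusion with ubiquitin, had 500, 526 and 497 CPM against 669, 709 and 812 CPM (-0.52 ± 0.08, adjusted p = 0.00014). The groups were apart in each case. RPS27, a zinc-binding protein, fell by 0.31 on the log2 scale (edgeR adjusted p = 0.018), a call lost under 6 of 19 alternative fits. Among these were the fits without doxycycline replicate 3 (adjusted p = 0.11) or day 6 replicate 3 (adjusted p = 0.057). Of 18 members listed as Diamond-Blackfan genes 16 were lower on day 6, with a median of -0.40 beside -0.36 over all members. That count too was much as in the whole module, with 70 of 77 lower, beside 14.0% of all tested genes.

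RPL11, RPL12, RPL13, RPL26, RPL36A, RPS2 and RPS4X were the 7 members not called on day 6. RPS4X, the X-linked copy of a small subunit protein, had 1460, 1420 and 1350 CPM on day 6 against 1430, 1420 and 1570 CPM with doxycycline, an overlap of the groups with a log2 difference of -0.06 ± 0.06. RPS2, at the entry of the mRNA channel, had 2440, 2430 and 2370 CPM against 2790, 2800 and 2930 CPM, groups that were apart (-0.23 ± 0.11, edgeR adjusted p = 0.13). RPL13 had 1450, 1500 and 1420 CPM against 1650, 1640 and 1680 CPM, again apart (-0.19 ± 0.16, edgeR adjusted p = 0.41). Both genes had a low library outside this comparison, and all 18 libraries share the estimate of spread. Parental replicate 3 without doxycycline held 1510 CPM of RPS2 beside 2200 and 2440 CPM in its partners, and 752 CPM of RPL13 beside 1410 and 1590 CPM.

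On day 3 the decrease was smaller. Of the 77 members 33 (42.9%) were lower than with doxycycline and 1 (1.30%), RPS10, was higher, beside 6.87% and 6.50% of all tested genes. The median over the members was -0.225 against -0.002 over all tested genes, and 75 of the 77 values were negative. Of the 33 lower members, 30 were also lower on day 6, a comparison with the same controls. RPL31, at the rim of the exit tunnel, had 330, 303 and 282 CPM on day 3 against 360, 402 and 452 CPM with doxycycline (-0.41 ± 0.09, edgeR adjusted p = 0.0063). RPS3A, on the platform of the small subunit, had 777, 765 and 733 CPM against 913, 976 and 1090 CPM (-0.39 ± 0.07, adjusted p = 0.002). RPS15A followed with -0.37 ± 0.08 (adjusted p = 0.0055) and RPL9 with -0.36 ± 0.08 (adjusted p = 0.0069, or 0.054 without day 3 replicate 3). The 5 largest decreases on day 3 and the 5 largest on day 6 shared 0 genes.

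The day 3 count depended on single libraries more than the day 6 count did. It was 17, 18 and 10 lower members without doxycycline replicate 1, 2 or 3, and 18, 13 and 8 without day 3 replicate 1, 2 or 3, while the direction held in all 6 fits. It was 67 when only the 2 groups compared were fitted, and 13 with the trend with length removed. RPL13A, which also belongs to a complex that silences inflammatory messages and whose introns hold 4 small nucleolar RNAs, kept its call in all 6 fits, with 1990, 2000 and 2020 CPM on day 3 against 2460, 2520 and 2740 CPM with doxycycline (-0.36 ± 0.06, edgeR adjusted p = 0.0015).

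On day 9 fewer members were lower, while more of all tested genes were called. Of the 77 members 19 (24.7%) were lower and 2 (2.60%) higher, beside 23.8% and 22.6% of all tested genes, so the share of lower members was near the background. The median was -0.102 against -0.010 over all tested genes. All 19 lower members were also lower on day 6, and 13 of them on day 3 as well: RPL3, RPL4, RPL7, RPL9, RPL10, RPL13A, RPL22, RPL23A, RPL31, RPL39, RPS3A, RPS15A and RPS25. The 3 comparisons share their doxycycline libraries, so these overlaps are not independent. The count of lower members was 5, 6 and 7 without doxycycline replicate 3, day 9 replicate 1 or day 9 replicate 2, and 34 without day 9 replicate 3. With both replicate 3 libraries left out together, a choice made after the data were seen, it was 24.

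RPL13A had the largest decrease on day 9, with 1680, 1650 and 1970 CPM against 2460, 2520 and 2740 CPM with doxycycline (-0.54 ± 0.06, edgeR adjusted p = 1.7e-06). RPL3 had 1800, 1660 and 1950 CPM against 2250, 2180 and 2350 CPM (-0.32 ± 0.06, adjusted p = 0.00032), and RPL15, a core protein of the large subunit, had 888, 889 and 1060 CPM against 1160, 1150 and 1190 CPM (-0.31 ± 0.06, adjusted p = 0.00053). For these 3 genes the groups were apart. RPS29 and RPL41 were lower by 0.37 and 0.35 on the log2 scale (adjusted p = 0.027 and 0.01), but RPS29 lost its call without doxycycline replicate 2 or 3 or day 9 replicate 1 or 2 (adjusted p of 0.065 to 0.14), and RPL41 without doxycycline replicate 3 or day 9 replicate 1 or 2 (0.05 to 0.068). RPLP0, of the stalk, had 1790, 1820 and 2240 CPM (-0.23 ± 0.08, adjusted p = 0.03), a call lost without doxycycline replicate 2 or 3 or day 9 replicate 1 or 2 (adjusted p of 0.095 to 0.16). The highest day 9 library of each of RPS29, RPL41 and RPLP0 lay within the range of the doxycycline libraries. RPLP1 and RPLP2 had 1260, 1340 and 1660 CPM and 583, 546 and 667 CPM on day 9, which overlapped the doxycycline libraries given above, with log2 differences of 0.06 ± 0.09 and 0.09 ± 0.07. By subunit, 15 of 46 large and 4 of 31 small subunit members were lower, beside 23.8% of all tested genes. The difference between these counts was not tested. The ratio of large to small subunit counts was 1.66 ± 0.045 on day 9 against 1.77 ± 0.0063 with doxycycline (SD, n = 3 each), and the highest day 9 library, at 1.70, lay below the lowest doxycycline library, at 1.76.

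Between the days themselves the called members fell and then rose. For day 6 against day 3, 27 members (35.1%) were lower and 0 higher, beside 20.8% and 21.9% of all tested genes, with a median of -0.15. Day 9 against day 6 gave 53 members (68.8%) higher and 1 (1.30%) lower, beside 28.6% and 30.2% of all tested genes, with a median of 0.27. Large increases outside RPS10 and RPL17 were those of RPS15 (943, 904 and 991 CPM on day 9 against 631, 629 and 608 CPM on day 6, log2 fold change 0.60 ± 0.07, edgeR adjusted p = 7.6e-07) and RPL35 (0.55 ± 0.07). RPL13A was the only lower member (-0.20 ± 0.06, edgeR adjusted p = 0.012), and lost that call when day 9 replicate 1 (adjusted p = 0.062) or replicate 2 (adjusted p = 0.055) was left out. With the trend with genomic span removed, a choice made after the data were seen, the counts were 8 lower and 3 higher for day 6 against day 3 and 20 higher for day 9 against day 6. Without day 3 replicate 2 or day 6 replicate 3, 17 and 14 members were lower on day 6 than on day 3.

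**Figure D3:**
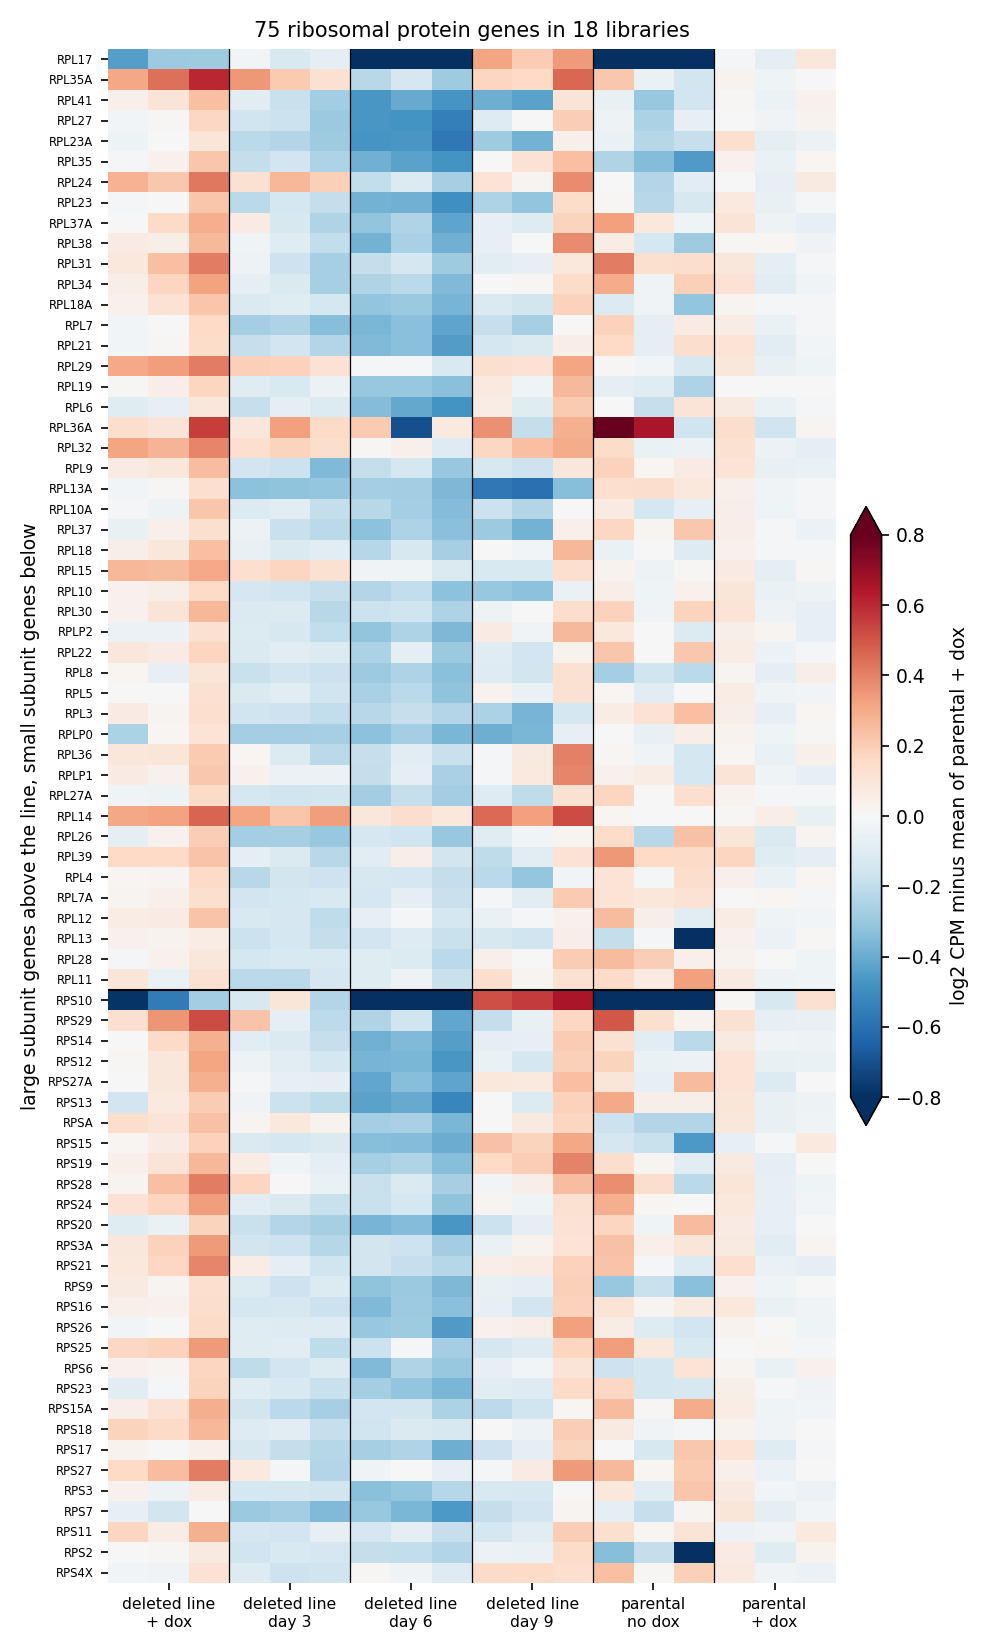
Each row is 1 of 75 of the 77 genes and each column 1 of the 18 libraries, coloured by log2 CPM minus the mean of the 3 parental libraries with doxycycline (scale -0.8 to 0.8), with rows ordered within each subunit by the day 6 change. The day 6 columns are blue in nearly all rows, replicate 3 of the doxycycline group and of day 9 is redder than its partners in most rows, and parental cells without doxycycline are dark blue in all 3 libraries for RPL17 and RPS10 and in replicate 3 for RPL13 and RPS2.

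RPS10 and RPL17 were the 2 highest or the 2 lowest members in each comparison with a control. RPS10, at the mRNA entry side of the small subunit and a target of the ubiquitin ligase that marks collided ribosomes, had 6.48, 7.56 and 9.17 CPM with doxycycline in the deleted line, 10.2, 11.9 and 9.47 on day 3, 4.64, 3.58 and 4.13 on day 6 and 15.9, 16.4 and 17.5 on day 9. Its log2 fold change against doxycycline was 0.45 ± 0.14 on day 3, -0.91 ± 0.14 on day 6 and 1.11 ± 0.14 on day 9 (edgeR adjusted p = 0.036, 0.00011 and 2.7e-06). The groups of day 6 and day 9 were separate from the doxycycline group on opposite sides of it. The day 3 call was lost without any 1 of the 6 libraries other than doxycycline replicate 3 (adjusted p of 0.055 to 0.19). RPL17, which lines the exit tunnel, had 18.9, 21.0 and 21.1 CPM with doxycycline, 25.3, 23.6 and 24.4 on day 3, 12.9, 10 and 12.4 on day 6 and 32, 29.6 and 32.5 on day 9. Its log2 fold change was -0.79 ± 0.10 on day 6 and 0.63 ± 0.10 on day 9 (edgeR adjusted p = 1.7e-05 and 3.4e-05).

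Counting the pseudogenes with each gene changed these values. RPS10 then had -0.14 on day 3, -0.52 on day 6 and 0.25 on day 9 (edgeR adjusted p = 0.44, 0.002 and 0.081), and RPL17 had -0.37 on day 6 and 0.03 on day 9 (adjusted p = 0.00039 and 0.74). The decrease on day 6 was thus present in both forms for both genes, and the increase on day 9 was called only without the pseudogenes. RPL36A, the third gene of this kind, had 0.274 to 0.825 CPM over all libraries and was called in none of the 7 comparisons of groups.

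**Figure D4:**
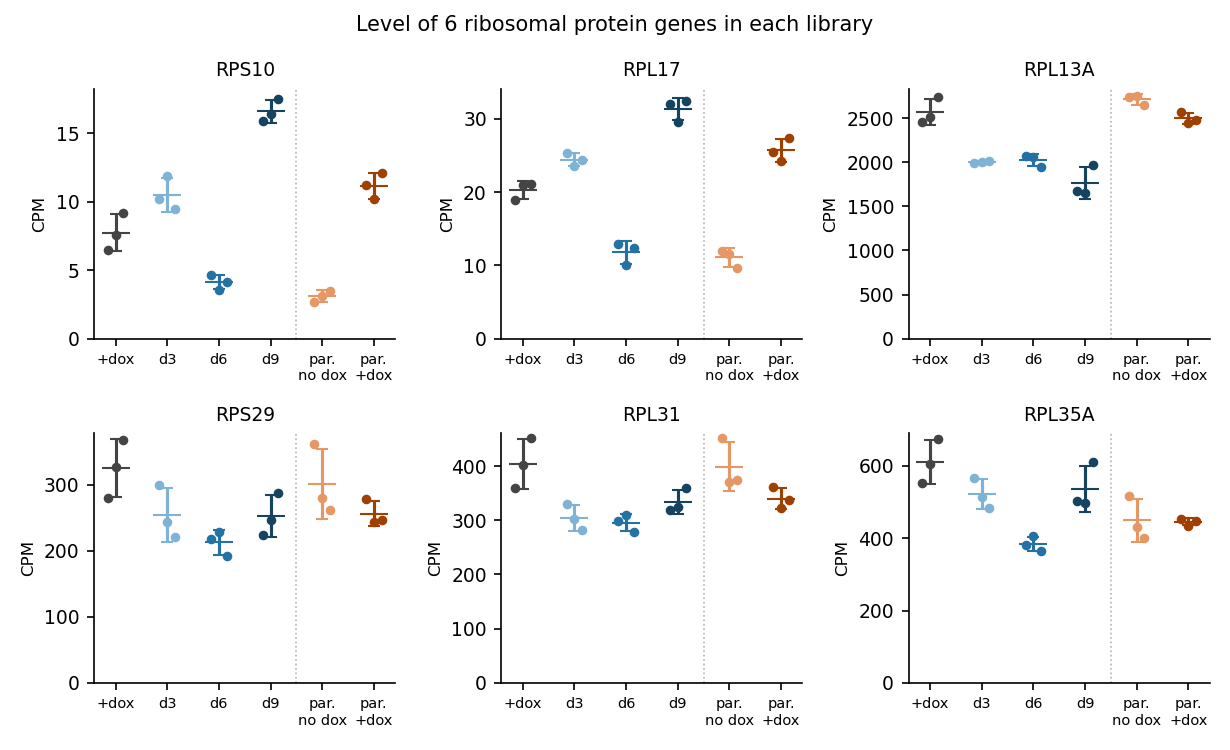
Level in CPM (y axis, from 0) of 6 members in each library, for the deleted line with doxycycline (+dox) and on days 3, 6 and 9 (d3, d6, d9) and for parental cells (par.) without and with doxycycline, with the mean and SD (n = 3). RPS10 and RPL17 are lowest on day 6 and in parental cells without doxycycline and highest on day 9, whereas RPL13A has its lowest mean on day 9, at 1650 to 1970 CPM.

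In parental cells few members differed with the drug. Without doxycycline 9 members (11.7%) were lower and 4 (5.19%) higher than with it, beside 18.4% and 21.0% of all tested genes, and the median of 0.026 was that of all genes (0.028). RPS10 had 2.65, 3.14 and 3.49 CPM without doxycycline against 11.2, 10.2 and 12.1 CPM with it (-1.85 ± 0.14, edgeR adjusted p = 7.9e-08), and RPL17 had 12, 11.6 and 9.65 CPM against 25.5, 24.3 and 27.4 CPM (-1.21 ± 0.10, adjusted p = 1.5e-07). With pseudogenes counted in, these were -0.53 and -0.17 (adjusted p = 0.0011 and 0.047). These 2 differences were far larger than those of any other called member. RPS2 fell by 0.44 on the log2 scale (adjusted p = 0.0037), or by 0.27 (adjusted p = 0.0044) without parental replicate 3 grown without doxycycline. RPL35 fell by 0.34 and RPS9 by 0.27, with adjusted p = 0.00087 and 0.003. RPL31 (0.23), RPL11 (0.19) and RPL28 (0.17) were among the 4 higher members, and none of the 4 stayed called without parental replicate 3 with doxycycline, which left 6 lower and 0 higher members. Of 18 alternative fits, RPL31, RPL11 and RPL28 lost their calls under 9, 5 and 15. The split of the calls depended on the scaling: 9 members were lower and 14 higher by library size alone, 9 and 10 with the length trend removed, and 4 and 15 with the GC and length trends removed. With the span trend removed they were 6 and 7.

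Whether the deleted line responded to loss of doxycycline differently from the parental line was tested as a line-by-doxycycline interaction. On day 6 47 members (61.0%) were lower in the deleted line by this test and 1 (1.30%), RPS10, was higher, beside 7.14% and 5.49% of all tested genes, with a median of -0.36. On day 3 the counts were 32 (41.6%) lower and 2 (2.60%) higher, RPS10 and RPL17, beside 20.9% and 18.6%. On day 9 they were 17 (22.1%) lower and 6 (7.79%) higher, beside 27.3% and 24.4%, so both shares were below the background. Of the 70 members lower on day 6, 46 were also lower in the interaction, and both rest on the same deleted-line libraries. RPL31 had the same sign and passed on each day, at -0.64 ± 0.13, -0.68 ± 0.13 and -0.51 ± 0.13 for days 3, 6 and 9 (edgeR adjusted p = 0.00057, 0.0024 and 0.0024). Without day 6 replicate 3, parental replicate 1 without doxycycline, or parental replicate 2 or 3 with doxycycline, the day 6 count of lower members was 25, 29, 27 and 29. With the length trend removed it was 28. Without day 9 replicate 3 the day 9 count was 30.

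With doxycycline present, the members called higher in the deleted line than in the parental line lay mainly on chromosome 3. Of the 77 members 9 (11.7%) were higher in the deleted line and 2 (2.60%) lower, beside 9.32% and 9.97% of all tested genes, and 6 of the 9 lie on chromosome 3, which holds 7 members. RPL35A had 552, 605 and 675 CPM in the deleted line against 454, 435 and 447 CPM in parental cells (0.46 ± 0.10, edgeR adjusted p = 0.0024). RPL14 had 856, 864 and 955 CPM against 697, 717 and 663 CPM (0.37 ± 0.06, adjusted p = 0.00026). RPL29 (0.35 ± 0.06), RPL32 (0.33 ± 0.07), RPL24 (0.31 ± 0.09) and RPL15 (0.27 ± 0.06), all large subunit proteins, followed. The call of RPL24 was lost under 4 of 18 alternative fits. RPSA, the seventh, had 0.16 ± 0.06 (adjusted p = 0.06). The 3 higher members elsewhere in the genome were RPS27 (0.28 ± 0.09), RPS3A (0.21 ± 0.07) and RPS18 (0.20 ± 0.06), and RPS27 lost its call without any 1 of 5 of the 6 libraries, doxycycline replicate 1 of the deleted line being the exception (adjusted p of 0.076 to 0.18). RPS10 had 6.48, 7.56 and 9.17 CPM in the deleted line against 11.2, 10.2 and 12.1 CPM in parental cells (-0.53 ± 0.14, adjusted p = 0.0092), a call lost without replicate 1 of the deleted line (0.069) or parental replicate 3 (0.051) and replaced by a difference of 0.02 with pseudogenes counted in. RPL17 was the other lower member (-0.34 ± 0.10, adjusted p = 0.019), lost without parental replicate 1 or 3 or replicate 1 of the deleted line (0.05 to 0.1). The count of higher members was 6, 5 and 6 without parental replicate 1, 2 or 3 with doxycycline and 5 without replicate 3 of the deleted line.

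The rest of chromosome 3 was also higher at the median. Its 670 other genes with a mean of at least 5 CPM had a median log2 fold change of 0.213 in the deleted line against parental cells with doxycycline, and all 10 bins of 20 Mb along the chromosome had a positive median, of 0.087 to 0.242. Relative to parental cells with doxycycline, the median of these other genes was 0.188 to 0.225 in the libraries of the deleted line with doxycycline, 0.292 to 0.304 on day 3, 0.108 to 0.12 on day 6 and 0.143 to 0.208 on day 9. It was 0.001 to 0.072 in parental cells without doxycycline. Every library of the deleted line thus stood above every parental library. Without the chromosome 3 members 3 of 70 were higher and 2 lower in the deleted line with doxycycline, and 63 of 70 were lower on day 6. The median log2 fold change of these 70 members in the deleted line with doxycycline against parental cells with it was 0.076. For day 6 against day 3 all 7 members of chromosome 3 were lower, beside a median of -0.166 for the other genes of the chromosome, and 20 of the other 70 members were lower. The number of copies of chromosome 3 was not measured, and its part in these differences was not tested.

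**Figure D5:**
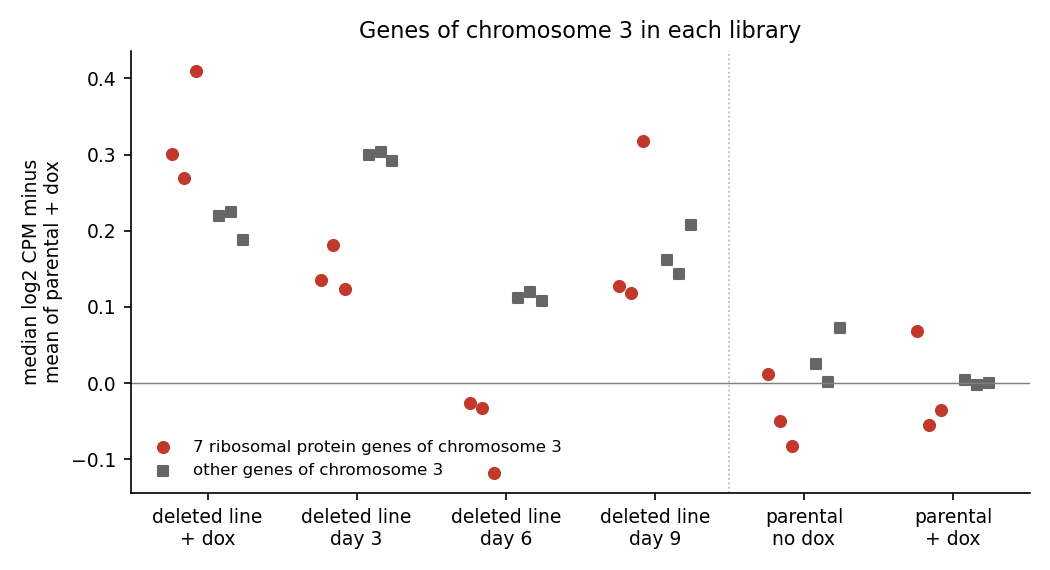
Median log2 CPM minus the mean of parental cells with doxycycline (y axis), in each library, for the 7 ribosomal protein genes of chromosome 3 (red circles) and for the 670 other genes of that chromosome (grey squares). The squares of the deleted line lie at 0.108 to 0.304, above all parental squares, whereas the circles fall to between -0.118 and -0.026 on day 6.

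Subsets of the members had similar medians on day 6. On that day 46 of the 50 members with a pyrimidine run at the annotated start and 10 of the 12 without one were lower, with medians of -0.37 and -0.39. Members that host small nucleolar RNAs in their introns, 28 in all, had 25 lower with a median of -0.33, and the 49 others had 45 lower with a median of -0.39. Of the 35 members with an exonic length under 1000 bases 31 were lower, and of the 42 longer members 39, with medians of -0.36 for both. Across the 77 members the day 6 change had a Spearman correlation of 0.523 with the mean level, so that less abundant members fell further on the whole, and of 0.061 with exonic length and 0.163 with GC content. These are descriptions over genes measured in the same libraries.

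FAU, which encodes a ribosomal protein of the small subunit as a fusion with a ubiquitin-like protein, has another symbol and so stands outside the 77. It had 211, 205 and 198 CPM on day 6 against 241, 242 and 280 CPM with doxycycline (-0.31 ± 0.07, edgeR adjusted p = 0.004). On day 9 it was higher, with 294, 313 and 342 CPM (0.32 ± 0.07, adjusted p = 0.0017), and every day 9 library lay above every doxycycline library. Of the 77 members, RPS10 and RPL17 alone were called in that direction on day 9. FAU was also lower in parental cells without doxycycline (-0.20 ± 0.07, adjusted p = 0.038), a call lost without parental replicate 2 or 3 grown without doxycycline or replicate 1 or 3 grown with it (adjusted p of 0.052 to 0.17).

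Among paralogues, which encode alternative forms of single ribosomal proteins, 7 of 8 were tested and 5 were lower on day 6. That was 71.4% of those tested, beside 14.0% of all tested genes. RPL22L1, the partner of RPL22, had 48.7, 36.7 and 39.2 CPM on day 6 against 64.2, 71.9 and 88.2 CPM with doxycycline (-0.85 ± 0.20, edgeR adjusted p = 0.0038). RPL26L1 fell by 0.61, RPL36AL by 0.56, RPS27L, which is also a p53 target, by 0.47, and RPL7L1, which acts in ribosome assembly, by 0.40. RPL39L (-0.31 ± 0.19) and RPL3L, at 0 to 0.235 CPM, did not pass, and RPL10L was not tested. On day 9 RPL7L1 alone of the paralogues was called, at 0.33 ± 0.08 (adjusted p = 0.0022). In parental cells without doxycycline 3 of the 7 (42.9%, beside 18.4% of all tested genes) were lower. RPS27L (0.26 ± 0.09) was the 1 that was higher there (14.3%, beside 21.0%), a call lost under 7 of 18 alternative fits. RPL22L1 had 62.2, 51.4 and 46.1 CPM there against 93.9, 83.7 and 82.4 CPM with doxycycline (-0.70 ± 0.20, edgeR adjusted p = 0.0086), and its day 6 interaction was -0.15 ± 0.28 (adjusted p = 0.79). RPL7L1 had -0.55 ± 0.08 and RPL26L1 -0.27 ± 0.08 (edgeR adjusted p = 3.6e-05 and 0.014), and RPL26L1 lost that call under 5 of 18 alternative fits.

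Other messages listed for a TOP tract were represented by 20 translation factors and RNA-binding proteins. By the search above, 12 of the 14 with a promoter entry held a run. The 20 gave 3 lower on day 3, 11 on day 6 and 3 on day 9, and 0, 0 and 2 higher. The lower ones were 15.0%, 55.0% and 15.0% of the list, beside 6.87%, 14.0% and 23.8% of all tested genes, so the day 9 share was below the background. Their medians were -0.13, -0.22 and -0.03. NPM1, a nucleolar chaperone, had 887, 883 and 823 CPM on day 6 against 1240, 1250 and 1320 CPM with doxycycline (-0.55 ± 0.08, edgeR adjusted p = 0.0001), and HNRNPA1, a splicing factor, had 1960, 1940 and 1940 CPM against 2730, 2780 and 3050 CPM (-0.55 ± 0.08, adjusted p = 6.1e-05). The elongation factor subunit EEF1B2 fell by 0.45 on day 6. The initiation factor subunit EIF3L was lower on all 3 days, at -0.21, -0.28 and -0.21 (adjusted p = 0.034, 0.0025 and 0.0094), and EIF4B had 517, 468 and 616 CPM on day 9 against 792, 776 and 787 CPM (-0.56 ± 0.08, adjusted p = 2.5e-05).

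Chaperones, importers and assembly factors that handle ribosomal proteins included 10 of 23 that were lower on day 6 and 14 of 23 that were higher on day 9. On day 6 this was 43.5%, beside 14.0% of all tested genes, with 0 higher and 13 not called. On day 9 it was 60.9%, beside 22.6%, with 2 lower. On day 3 4 (17.4%, beside 6.50%) were higher and 0 lower. GRWD1, a chaperone of RPL3, had 57.2, 57.4 and 69.5 CPM with doxycycline, 77.1, 86.7 and 82.9 on day 3, 46.7, 38.3 and 40.9 on day 6 and 109, 107 and 136 on day 9. These are log2 fold changes of 0.42 ± 0.11, -0.55 ± 0.11 and 0.94 ± 0.11 (edgeR adjusted p = 0.016, 0.0011 and 1.6e-06). Every day 9 library was above every doxycycline library. LSG1 (0.73 ± 0.09) and EIF6 (0.63 ± 0.09), late factors of the large subunit, were also higher on day 9. In parental cells without doxycycline 14 of the 23 (60.9%, beside 18.4% of all tested genes) were lower and 0 higher. GRWD1 had 45.8, 49.4 and 37.3 CPM there against 88.6, 89.3 and 95.3 CPM with doxycycline (-1.04 ± 0.11, edgeR adjusted p = 1.4e-06). In the deleted line with doxycycline 11 of the 23 (47.8%, beside 9.97% of all tested genes) were lower than in parental cells with it. By the line-by-doxycycline interaction, 0 of the 23 were lower on day 6, beside 7.14% of all tested genes. On that day 1 (4.35%, beside 5.49%) was higher. In the interactions of days 3 and 9, 14 were higher each (60.9%, beside 18.6% and 24.4%) and 0 lower.

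Of 15 genes that control TOP messages or their transcription, 3 were higher on day 3, 2 lower and 3 higher on day 6, and 4 lower and 5 higher on day 9. On day 6 these were 13.3% and 20% of the list, beside 14.0% of all tested genes in each direction. On day 9 they were 26.7% and 33.3%, beside 23.8% and 22.6%. On days 6 and 9 the shares of this list were thus near the background. On day 3 the higher genes were 20% of the list, above the 6.50% of all tested genes, and 0 were lower, beside 6.87%. MYC had 1190, 1200 and 995 CPM with doxycycline, 963, 862 and 904 on day 3, 1570, 1790 and 1800 on day 6 and 774, 733 and 645 on day 9. It was higher on day 6 (0.61 ± 0.11, edgeR adjusted p = 0.00037) and lower on day 9 (-0.65 ± 0.11, adjusted p = 5.8e-05). In parental cells MYC was also higher without doxycycline, with 1310, 1430 and 1870 CPM against 1070, 1080 and 1020 CPM with it (0.54 ± 0.11, adjusted p = 0.00056), and the day 6 interaction was 0.07 ± 0.15 (adjusted p = 0.81). MTOR, the kinase of mTORC1, had 147, 152 and 152 CPM on day 3 and 177, 163 and 183 CPM on day 9, each against 118, 123 and 126 CPM with doxycycline (0.30 ± 0.06 and 0.51 ± 0.06, adjusted p = 0.005 and 3e-06), and 124, 112 and 118 CPM on day 6, which overlapped those controls.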

How the data were processed

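RNA-seq was read from 18 libraries of HAP1 cells, 3 in each of 6 groups. The authors deposited raw counts per gene, which are the values used here. Per the submitters' processing notes, which name tools without their order, these are cutadapt 2.3, HISAT2, SAMtools, Subread featureCounts and DESeq2, with build GRCh38. For the annotation release, the strand setting and the treatment of reads that fit several genes, no source used here gives a value, and reads of overlapping or antisense genes cannot be told apart. Of the deposited genes 16 were broken over lines and were rejoined, 6 libraries were deposited in duplicate with identical counts, and the 37 mitochondrially encoded genes were at 0 in every library.

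CPM values were computed from the deposited counts with TMM scaling in edgeR 4.0.16 (R 4.3.3, limma 3.58.1). Summed marker levels and shares of a library use the plain total of counts. Genes with low counts were removed by filterByExpr with a minimum count of 10, which left 21615. All 18 libraries entered 1 quasi-likelihood fit, with a biological coefficient of variation of 0.1198, and line-by-doxycycline differences were tested as contrasts of it. Values after ± beside a log2 fold change are standard errors. P-values were adjusted by the Benjamini-Hochberg method over all tested genes, and genes with an adjusted p under 0.05 are termed called. Nothing in the labels says that the 3 libraries of a group are from separate cultures; the p-values cover only how these samples vary, and that variation may be technical. The share of a library in the members is a description with no test. On simulated counts for day 6, over 21615 genes, 18.4% and 20.4% of genes changed by -0.36 and 0.36 were called. Of those changed by -1 and 1 it was 70.8% and 68.0%. The changed genes were drawn at random from all tested genes, whatever their level. These shares therefore do not tell how often a member with such a change would be called.

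The members and gene lists were chosen with earlier results of these data known. Named are 16 members in every case, in each comparison the 5 called members with the largest change in each direction, FAU, all paralogues, and up to 4 called genes of the other lists. Some genes that this rule names are not reported here. Promoter windows came from RefSeq. Alternatives were another scaling, including the size factors of DESeq2 1.42.0, no filter, a replicate block, removal of GC, length or span trends, pseudogenes added to their gene, a fit of the compared groups alone, and each library left out. Same-numbered libraries did not deviate together (correlations of -0.077 to 0.070), so the numbers do not pair them. Figures were drawn with Python 3.11.15 and matplotlib 3.10.9.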

Additional observations from a re-analysis of the deposited data

Results flagged for a closer look

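The members below differed between the deleted and the parental line in their response to removal of doxycycline, by the edgeR test of the interaction. Each value is the log2 fold change in the deleted line minus that in the parental line.

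On day 3 the largest negative differences were of RPL31 (-0.637), RPS29 (-0.584), RPS15A (-0.558), RPL39 (-0.535) and RPS3A (-0.513), and the positive ones were of RPS10 (2.301) and RPL17 (1.478). On day 6 the largest negative ones were of RPS29 (-0.841), RPL31 (-0.684), RPL35A (-0.683), RPS13 (-0.637) and RPS27A (-0.623), and the positive one was of RPS10 (0.946). On day 9 they were of RPL13A (-0.661), RPS29 (-0.595), RPL31 (-0.505), RPS15A (-0.463) and RPL3 (-0.459), and the positive ones were of RPS10 (2.959), RPL17 (1.84), RPS2 (0.436), RPS15 (0.403) and RPL35 (0.379).

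The day 3 call of RPS29 was lost under 5 of 25 alternatives. Among them were those without parental replicate 1 grown without doxycycline (edgeR adjusted p = 0.071), doxycycline replicate 3 of the deleted line (0.051) or day 3 replicate 3 (0.053). Its day 9 call was lost under 4 of 25, among them that without parental replicate 1 grown without doxycycline (0.052). The day 9 call of RPS2 was lost under 10 of 25 alternatives, among them those without day 9 replicate 3 (adjusted p = 0.06), doxycycline replicate 1 of the deleted line (0.05) or parental replicate 1 or 3 grown with doxycycline (0.059 and 0.05). That of RPL35 was lost under 3, with GC and length trends removed, with the replicate block as well, and with the span trend removed (adjusted p of 0.055 to 0.42). With pseudogenes counted in, the differences of RPS10 were 0.384, 0.006 and 0.77 on days 3, 6 and 9 (edgeR adjusted p = 0.062, 0.99 and 0.00044), and those of RPL17 were 0.051 and 0.199 on days 3 and 9 (adjusted p = 0.7 and 0.08).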

How the results depend on the processing

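The counts are of members called in either direction. With the length trend removed 15 were called on day 3, 30 in the day 6 interaction and 19 in parental cells. With GC and length trends removed (16923 genes) there were 22 on day 3 and 19 in parental cells, and with the replicate block as well 22 on day 3, 44 on day 6 and 18 in parental cells. By library size alone there were 39 on day 9, 23 in parental cells, 17 between the lines and 43 in the day 9 interaction. With the span trend removed, chosen after the data were seen, there were 11 for day 6 against day 3, 22 for day 9 against day 6, 13 in parental cells and 35 in the day 9 interaction. Fitting only the groups compared gave 69 on day 3, 11 on day 9, 47 for day 6 against day 3 and 23 between the lines, and no filter gave 17 between the lines. In parental cells the majority of calls turned from lower to higher by library size alone and with any of the trends removed; the cause was not tested. RPS10 changed sign with pseudogenes counted in, to -0.142 on day 3 and 0.022 between the lines.

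Leaving out 1 library gave 8 to 18 calls on day 3, 57 to 70 on day 6, 8 to 36 on day 9, 14 to 25 for day 6 against day 3, 44 to 54 for day 9 against day 6, 6 to 17 in parental cells and 6 to 10 between the lines. The interactions had 25 to 37 on day 3, 26 to 53 on day 6 and 17 to 35 on day 9. The difference in share was -1.12 to -0.819 percentage points on day 3, -1.29 to -0.984 on day 6, -0.957 to -0.623 on day 9, 0.0721 to 0.317 in parental cells and 0.345 to 0.649 between the lines. The replicate block, whose numbers do not pair the libraries, gave 29, 68 and 19 calls on days 3, 6 and 9. Of 111 results on single genes, 59 kept direction and call under every alternative run, 52 lost the call under at least 1, and 2 changed sign.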

Other observations

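The 5 genes outside the module whose group means were most like the members' mean profile over the 6 groups were MRPL33 (Pearson r of 0.994), RBX1 and METTL18 (0.991 each), TAGLN2 (0.988) and YWHAE (0.987). RBX1, a ring protein of cullin ubiquitin ligases, averaged 72.9 CPM in the deleted line with doxycycline, 62.6 on day 3, 53.8 on day 6 and 71.0 on day 9. These genes were picked as the most alike of all, so the values describe 6 points and carry no test.

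The low value of RPL13 in parental replicate 3 without doxycycline, 752 CPM beside 1410 and 1590 CPM, was not shared by the genes on either side of it. SPG7 had 93.5, 102 and 101 CPM and CPNE7 had 80.4, 91.9 and 87.3 CPM in these 3 libraries. The same library was also low for some genes elsewhere. Besides RPS2 these were NOP53 (155 CPM beside 302 and 326), EIF4EBP1 (94.6 beside 165 and 182) and RPL39L (19.9 beside 48.5 and 42.0). How many of all tested genes were low in it was not counted.

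All values are relative to the library total, so a change in total RNA per cell was not measured.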
